A study of Sus scrofa with 5 samples.

Results

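Pig skin grafts that had carried a hydrogel with an inhibitor of focal adhesion kinase (FAK) for 7 days were compared with untreated grafts of the same age by RNA of single cells. Cells with at least 500 genes detected entered the comparison, and every gene with a symbol in the deposited gene table was read. These were 9386 cells of the inhibitor graft and 8147 cells of the untreated graft, 17533 of the 28654 such cells in all 5 libraries of the study. Each graft is 1 library.

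The animals were pigs with full-thickness wounds that were closed with split-thickness skin grafts, which are thin sheets of epidermis and upper dermis. Both groups were wounded, grafted and collected at day 7, and differed in the label for treatment, which is none for one and FAK inhibitor for the other. Dressings with the hydrogel were renewed every other day. The labels describe no graft under a hydrogel without the drug, so the inhibitor and its carrier cannot be told apart, and they do not give the age or strain of the animals or how many stand behind a library. The study also holds both kinds of graft at day 90 and unwounded skin, which serve here only for their levels. Fresh tissue was digested with enzymes and the cells went into droplet capture, where each molecule of RNA receives a unique molecular identifier (UMI).

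FAK, encoded by PTK2, is a kinase at the sites where integrins tie the cytoskeleton to the matrix, and it passes mechanical tension into the cell. Interferons act through JAK kinases and switch on antiviral genes, the immunoproteasome and the chemokines CXCL9, CXCL10 and CXCL11. Those chemokines bind the receptor CXCR3 on activated T cells and NK cells and draw them into inflamed skin.

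The inhibitor library held 78503674 UMIs in its kept cells and the untreated library 73615656, with medians of 5669 and 6418 UMIs and 1775.5 and 1938 genes per cell. Mitochondrially encoded genes took a median of 2.95% of UMIs per cell with the inhibitor and 4.65% without. The libraries shared 19 cell barcodes. Levels below are UMI counts scaled to a library sum of 1000000 (CPM), and a gene was read when it reached 10 CPM in either library. The words rose, fell, higher and lower stand for a ratio of at least 1.5-fold, a rule of size. There is 1 library on each side, hence no replicate spread and no test. The 95% intervals printed here speak of counting error alone. A change over the whole library can come from more cells of a type or from more RNA in each cell, and the whole-library ratio cannot tell these apart.

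Interferon-induced chemokines and lymphocyte cytokines rose the most, and genes of tissue macrophages, endothelium and differentiating keratinocytes fell. Of 6956 genes at this level, 138 (1.98%) rose and 350 (5.03%) fell, together 7.02%, and 6468 lay in between. At 2-fold 45 rose and 49 fell, and at 4-fold 10 and 8. The median log2 ratio was -0.08, and 80% of genes lay between -0.45 and 0.25. Scaling by trimmed means (TMM) in place of the UMI sum moved that median to 0.05 and the calls to 210 higher and 187 lower, so that 52.9% of called genes were higher against 28.3% with the UMI sum. Genes close to the 1.5-fold border therefore depend on the scale, and ratios are best read against the median of all genes.

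**Figure D1:**
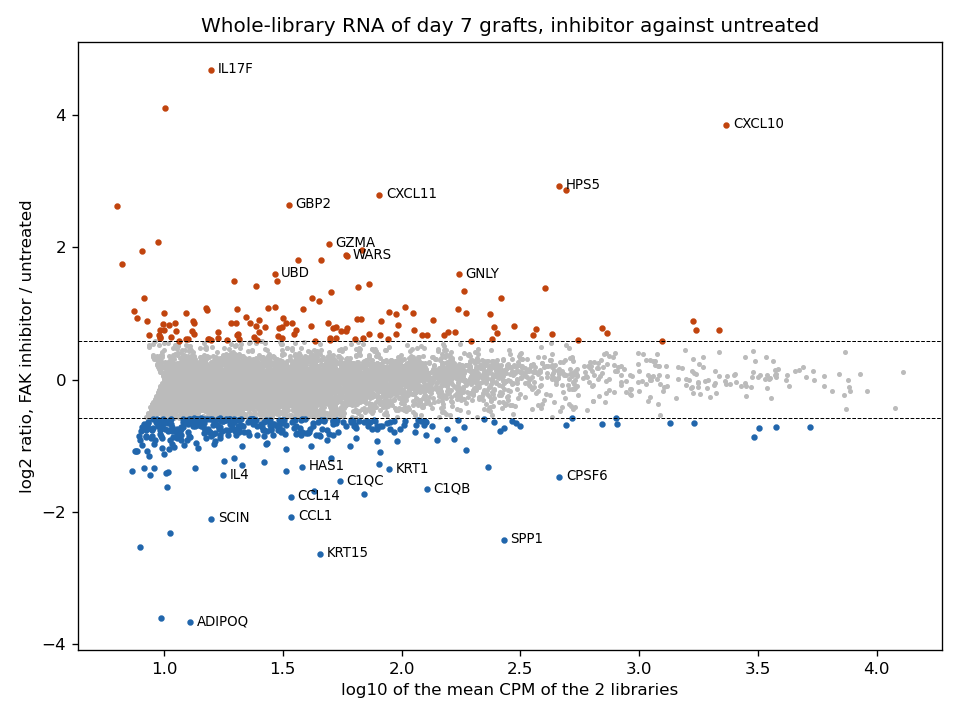
Each point is 1 of the 6956 genes, with the log10 of its mean CPM over both libraries on the horizontal axis and its log2 ratio of inhibitor to untreated graft on the vertical axis. Orange points rose and blue points fell by the 1.5-fold rule (dashed lines), and CXCL10 stands alone at a high level and a log2 ratio of 3.85.

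In the plot of ratio against level, the genes with the largest rises were mostly of low level, apart from CXCL10, CXCL9, HPS5 and GNLY. PTK2 itself stood at 51.4 CPM in the untreated and 50.8 CPM in the inhibitor graft, and at 54.3 CPM in unwounded skin. The ratio of untreated to inhibitor graft was 1.01-fold (interval 0.968 to 1.06), below the rule. The drug acts on the kinase protein, so this level is no check of its action.

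CXCL10 had 302 CPM in the untreated graft, 4362 CPM in the inhibitor graft and 82.2 CPM in unwounded skin. The ratio of the grafts was 14.4-fold (14.2 to 14.6). At least 1 UMI of it was seen in 13.2% of untreated cells (12.5 to 14) and in 45.2% of inhibitor cells (44.2 to 46.2). With every cell thinned to 2000 UMIs, which 7042 and 7598 cells could supply, the shares were 9.44% and 38.5%. Both measures of CXCL10 were thus higher with the inhibitor, and cells with a UMI of it held a mean of 80.8 UMIs against 20.6. In the barcodes below the 500-gene limit, 1397 and 1576 in number, CXCL10 stood at 177 and 2764 CPM, so it was also higher among barcodes with little RNA.

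CXCL9 had 118 CPM in the untreated and 865 CPM in the inhibitor graft, 7.34-fold higher (7.18 to 7.5). CXCL11 had 20.3 and 141 CPM, 6.93-fold higher (6.56 to 7.32). Cells with a UMI went from 6.19% to 15.8% for CXCL9 and from 2.41% to 6.96% for CXCL11. All 3 CXCR3 ligands on the list rose. CXCR3, their receptor, stayed below 10 CPM in both libraries, at 1.97 and 5.26 CPM, with a UMI in 1.46% and 3.55% of cells. In the inhibitor graft 81.3% of cells with a CXCL9 UMI also had one of CXCL10 (1203 of 1480), against 45.6% (230 of 504) in the untreated graft, where fewer cells held CXCL10 at all.

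To see in which cells these UMIs lay, cells were sorted by fixed marker lists. A cell entered a gate when it had a UMI of at least 3 markers of a list and a higher share of that list's markers than of any other. A gate is a range of a marker count and not a cell type, and in the mural gate cells carried a median of 4 fibroblast markers as well. CPM within a gate refer to the UMIs of that gate, and its genes were read at 100 CPM or more. Gates of fewer than 50 cells in a library were not used, which left out Schwann and melanocyte gates. The neutrophil gate, with 70 and 68 cells, had 94.3% and 98.5% of them at the 3-marker limit and held 43.4% and 37.3% of all SPP1 UMIs, a gene of macrophages, so it was not read (15.1% of its genes were higher and 8.59% lower).

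**Figure D2:**
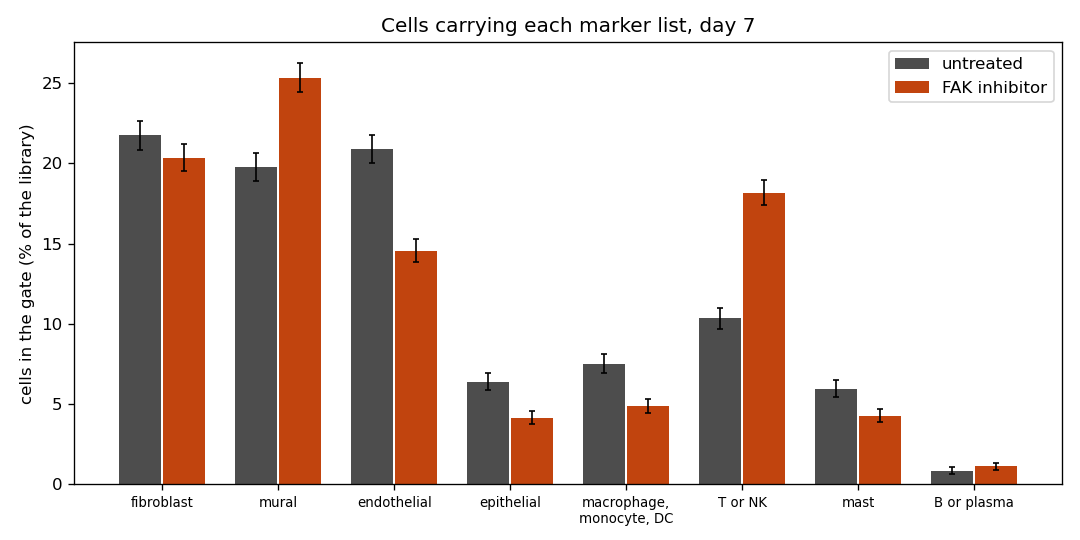
Bars give the cells in each marker gate as a percentage of all kept cells of the library, untreated in grey and FAK inhibitor in orange, with 95% Clopper-Pearson intervals for counting error. The T or NK and mural gates take a larger share with the inhibitor, and the endothelial, epithelial, macrophage and mast gates a smaller one.

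The T or NK lymphocyte gate held 10.3% of untreated cells (9.68 to 11) and 18.2% of inhibitor cells (17.4 to 19.0), a ratio of 1.76. The mural gate, for pericytes and smooth muscle, held 19.8% and 25.3%, a ratio of 1.28. Smaller shares with the inhibitor were seen for the endothelial gate (20.9% and 14.6%, ratio 0.697), the epithelial gate (6.41% and 4.14%, 0.647), the macrophage, monocyte or dendritic gate (7.52% and 4.88%, 0.649) and the mast gate (5.94% and 4.28%, 0.721). Fibroblast shares were 21.7% and 20.3%, a ratio of 0.936, B or plasma cell shares were 0.835% and 1.13%, and 5.18% and 6.13% of cells entered no gate. The bar chart of gate shares shows these pairs with their intervals. Digestion and capture also set such shares, and their part was not tested.

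CXCL10 was higher in the 7 of 8 gates where it reached 100 CPM, and in the B or plasma cell gate its level stayed below that limit. The 7 include the T or NK and mast gates, whose CXCL10 values were not read as expression, as described below. In the macrophage, monocyte or dendritic gate it had 576 CPM untreated and 9861 CPM with the inhibitor, 17.1-fold higher (16.6 to 17.7), and a UMI in 19.9% and 71.8% of cells. In the mural gate it had 337 and 7405 CPM, 22-fold higher (21.4 to 22.6), with 17.7% and 63.5% of cells. In the endothelial gate it had 497 and 5578 CPM (11.2-fold) and 20.5% and 57.2% of cells. The inhibitor levels thus ran from the macrophage gate down over the mural and endothelial gates, while the untreated levels of these 3 lay between 337 and 576 CPM.

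CXCL10 in the epithelial gate had 491 and 2911 CPM (5.93-fold), with 20.3% and 63.2% of cells, and in the fibroblast gate 69.8 and 1662 CPM (23.8-fold), with 7.45% and 37.0% of cells. T or NK cells had 32.6 and 676 CPM (2.97% and 18.8% of cells), mast cells 86.2 and 1420 CPM (3.1% and 20.4%), and B or plasma cells 5.80 and 93.4 CPM (4.41% and 21.7%). Median depth in the T or NK gate was 2496.5 and 2081 UMIs, in the B or plasma cell gate 8194.5 and 7424. The inhibitor shares of the last 3 gates lie at 18.8% to 21.7%, and those of the other 5 gates lie above them. Free RNA in droplets can give a UMI in cells that do not express a gene. Its part was not tested, and the values of the last 3 gates were not read as expression. Other genes that lymphocytes lack were also seen in the T or NK gate. COL1A1, a collagen gene of fibroblasts, had a UMI in 34.6% of untreated and 14.6% of inhibitor cells of the T or NK gate, and KRT5, a keratin of basal keratinocytes, in 21.6% and 9.20%. HBB, a globin gene of red cells, had a UMI in 2.14% and 1.70% of them but 7.25 and 267 CPM.

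CXCL9 was highest in the endothelial gate, with 349 CPM untreated and 2321 CPM with the inhibitor (6.65-fold, 6.46 to 6.85), followed by the macrophage gate with 91.7 and 1288 CPM (14-fold) and the mural gate with 135 and 1071 CPM (7.92-fold). CXCL11 had 82.8 and 442 CPM in the epithelial gate, where 21.1% and 52.4% of cells had a UMI, 23.3 and 413 CPM in the macrophage gate and 39.4 and 411 CPM in the endothelial gate. In the mural gate CXCL11 reached only 4.6 and 31.9 CPM, below the 100 CPM at which gates were read. The 3 ligands therefore had different leading gates in the inhibitor graft.

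**Figure D3:**
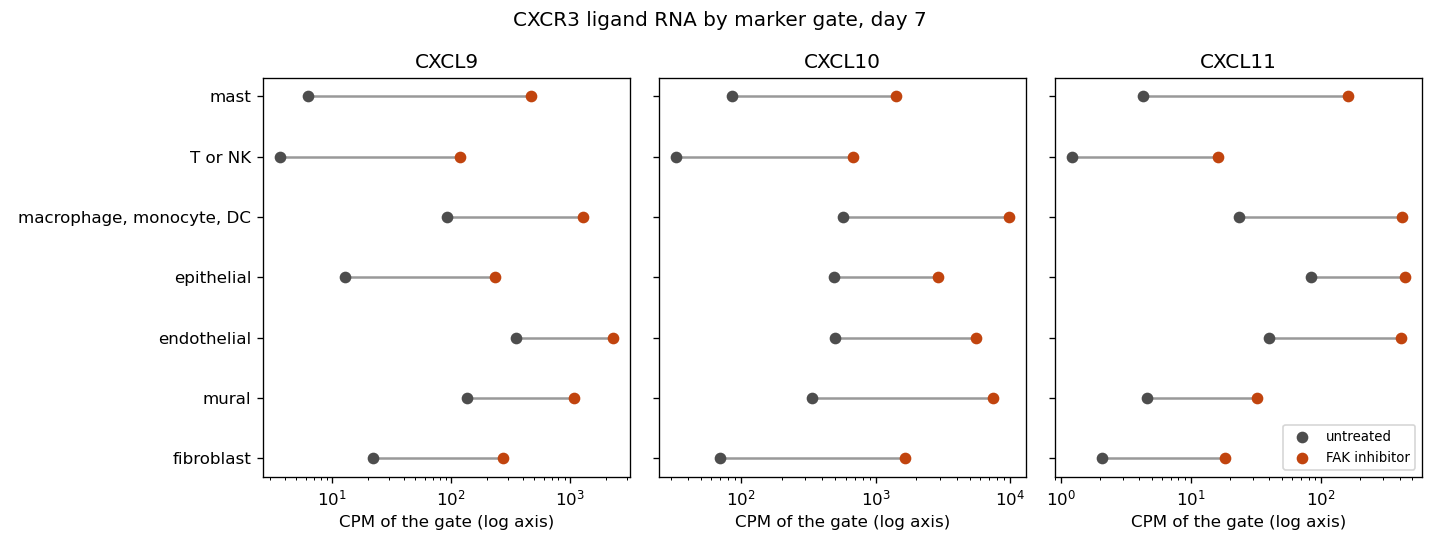
CPM of CXCL9, CXCL10 and CXCL11 within 7 marker gates on log axes, with the untreated graft in grey and the FAK inhibitor graft in orange, and 1 library behind each point. Every orange point lies to the right of its grey point, and the gate with the highest orange point is endothelial for CXCL9, macrophage for CXCL10 and epithelial for CXCL11. CXCL10 values of the T or NK and mast gates were not read as expression.

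Interferon-stimulated antiviral genes rose as a group. Of 29 measured members at level, 19 rose, 0 fell and 10 lay in between, with a median log2 ratio of 0.69 against -0.08 for all genes. Over all genes 1.98% rose and 5.03% fell, the shares to set beside each whole-library list count below. ISG20, an exonuclease that degrades viral RNA, had 16.3 and 57.2 CPM (3.51-fold higher, 3.29 to 3.74) and a UMI in 7.61% and 19.3% of cells. PARP14, an ADP-ribosyltransferase, had 28.8 and 72.5 CPM (2.52-fold), EPSTI1 25 and 52.3 CPM (2.09-fold) and the mitochondrial nucleotide kinase CMPK2 8.18 and 16.5 CPM (2.02-fold).

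Among the abundant members, IFI6 had 1181 CPM untreated and 2175 CPM with the inhibitor (1.84-fold), IFITM3, which blocks virus entry, 996 and 1499 CPM (1.51-fold), and the ubiquitin-like protein ISG15 554 and 907 CPM (1.64-fold). In unwounded skin IFI6 stood at 1408 CPM and ISG15 at 1039.7 CPM, so the inhibitor graft lay above unwounded skin for IFI6 and below it for ISG15. Members between the limits included EIF2AK2, the kinase that senses double-stranded RNA, at a log2 ratio of 0.18 and MX2 at 0.29. IFITM3 lay at the border and was below 1.5-fold with cells of 1000 or more genes (0.57 on the log2 scale).

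No member of this antiviral list fell in any gate. In the T or NK gate 12 of 12 members at level rose (median log2 ratio 1.44), where 4.34% of all genes read in that gate rose and 1.91% fell. In the macrophage gate 10 of 11 rose (1.10; background 8.15%), in the B or plasma cell gate 5 of 5 (2.15; 8.15%, with 1.81% lower), in the mural gate 4 of 4 (0.77; 2.97%), in the mast gate 4 of 4 (1.38; 3.69%), in the epithelial gate 6 of 8 (0.79; 5.73%), in the fibroblast gate 3 of 4 (1.17; 3.20%) and in the endothelial gate 5 of 11 (0.48; 2.36%). MX1, a GTPase that traps viral nucleocapsids, had 58.4 and 223 CPM in the T or NK gate, 3.83-fold higher, with 9.98% and 26.1% of cells. In the endothelial gate MX1 had 74.0 and 103 CPM (1.39-fold), below the rule. As for CXCL10, free RNA can add UMIs in the T or NK, B or plasma cell and mast gates. Its part in the antiviral counts and values of these gates was not tested.

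Genes that interferon-gamma in particular induces rose in 7 of 12 cases, with 0 lower and a median of 1.01. GBP2, a guanylate-binding GTPase, had 9.25 and 57.8 CPM (6.25-fold higher, 5.76 to 6.78), with a UMI in 6.57% and 21.6% of cells, and 15.9 CPM in unwounded skin. WARS, the tryptophan tRNA synthetase, had 25 and 92.1 CPM (3.68-fold), and IDO1, which breaks down tryptophan, 10.3 and 29.0 CPM (2.81-fold). IDO1 lay mostly in the macrophage gate, with 65.2% and 61.7% of its UMIs, where it went from 78.0 to 371 CPM (4.75-fold) and from 18.9% to 45.2% of cells. The transcription factor IRF1 had 223 and 583 CPM (2.62-fold). In unwounded skin IRF1 stood at 711 CPM, above both grafts. ICAM1, an adhesion molecule (-0.12), and SOCS1, an inhibitor of JAK signalling (0.10), lay in between.

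Of the interferons, their receptors and signalling genes, 0 of 12 fell and 10 lay in between (median -0.17). IRF7, which drives type I interferon genes, rose from 36 to 94.7 CPM (2.63-fold). The receptors IFNGR1 (-0.18), IFNGR2 (-0.17) and IFNAR1 (-0.31) and the kinase JAK1 (-0.01) did not pass the rule. IFNG, the gene of interferon-gamma, was below 10 CPM in both libraries, at 0.0951 and 0.828 CPM, that is 7 and 65 UMIs. In the T or NK gate IFNG had 6 untreated and 28 inhibitor cells with a UMI (0.713% and 1.64%), and 2.82 and 14.1 CPM.

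Antigen processing split into its parts. The immunoproteasome subunits PSMB9 (104 and 263 CPM, 2.54-fold), PSMB8 (124 and 250 CPM, 2.01-fold) and PSMB10 (45.1 and 85.0 CPM, 1.88-fold), the proteasome activator PSME2 and the peptide transporter TAP1 (66.2 and 141 CPM, 2.13-fold) rose. B2M, the light chain of class I molecules, stood at 2902 and 3138 CPM (log2 ratio 0.11), and the class II gene SLA-DQB1 at 784 and 702 CPM (-0.16). CTSS, a protease of class II antigen processing, fell from 372 to 236 CPM (1.58-fold), and with the gates weighted alike its log2 ratio was 0.03. PSMB9 was higher in the mural gate (69.5 and 286 CPM, 4.12-fold) and the fibroblast gate (30.1 and 123 CPM, 4.09-fold), while in the T or NK gate it had 282 and 394 CPM (1.40-fold).

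**Figure D4:**
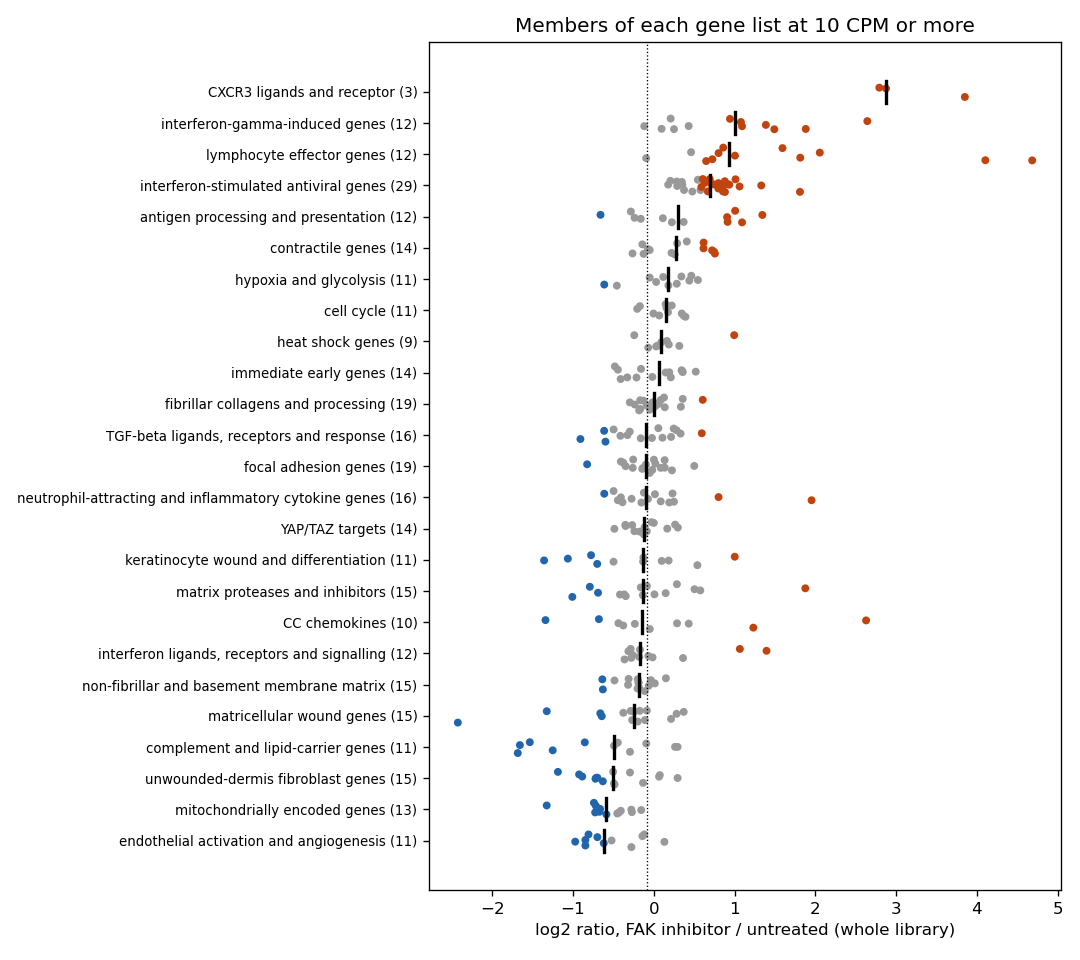
Each point is a gene of a fixed list at 10 CPM or more in either library, placed by its whole-library log2 ratio of inhibitor to untreated graft, and black bars are list medians. Orange points rose and blue points fell by the 1.5-fold rule, and the dotted line is the median of all genes, -0.08.

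The plot of gene lists places CXCR3 ligands, interferon-gamma-induced genes, lymphocyte effector genes and antiviral genes at the top. The lists, like the comparison, were chosen with earlier results of these data known, and their counts are descriptions of these libraries. Lymphocyte effector genes rose in 10 of 12 cases (median 0.93), with 0 lower, and T or NK markers in 5 of 9 (0.81), beside 1.98% of all genes. The summed level of those markers was 306 and 625 CPM, beside a gate share that was 1.76 times as large.

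IL17F, a cytokine of type 17 lymphocytes, showed the largest ratio of the comparison. It had 1.18 CPM in the untreated graft (87 UMIs in 18 cells) and 30.4 CPM in the inhibitor graft (2385 UMIs in 105 cells), 25.7-fold higher (20.8 to 32.2). IL17A, made by the same lymphocytes, had 1.11 and 19.2 CPM in 11 and 77 cells, 17.2-fold higher. In the inhibitor graft 53 cells held both. Of the IL17A UMIs, 69.5% in the untreated graft lay in cells of no gate, and 48.0% in the inhibitor graft lay in the T or NK gate. In the T or NK gate IL17F had a UMI in 0.831% of untreated and 3.99% of inhibitor cells and 16.1 and 356 CPM, against 0.226% and 0.524% of cells in the fibroblast gate, whose median depth was 10450 and 11746 UMIs. The ratios of both genes thus rest on few cells.

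Among the effector genes, granule genes differed in size of change. GZMA, a granule protease, had 19.1 and 79.6 CPM (4.16-fold, 3.92 to 4.41), a sum over 2 gene identifiers that carry the symbol. GZMH, another granzyme, had 20.3 and 71.2 CPM (3.52-fold), and GNLY, granulysin, which forms pores in microbes and cells, 86.5 and 261 CPM (3.02-fold, 2.93 to 3.1). NKG7, another granule protein of cytotoxic cells, had 64.8 and 89.3 CPM (log2 ratio 0.46) and did not pass the rule. Within the T or NK gate 3 of them rose too, with smaller ratios: GZMA from 501 to 1250 CPM (2.50-fold, 31.8% and 47.8% of cells), GZMH from 508 to 1118 CPM (2.20-fold) and GNLY from 2317 to 4174 CPM (1.80-fold). KLRK1, an activating receptor of NK and cytotoxic T cells, went from 399 to 709 CPM there (1.78-fold). GNLY and KLRK1 are markers of this gate, so cells enter it partly by carrying them, and their ratios there are not independent of the gate.

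Other genes of the T or NK gate were lower with the inhibitor. GATA3, the factor of type 2 helper cells, fell from 207 to 91.8 CPM (2.26-fold lower, 1.98 to 2.58), with 30.2% and 16.1% of cells. CCR4, a chemokine receptor of helper and regulatory T cells, fell from 206 to 86.3 CPM (2.39-fold lower, 2.09 to 2.73), with 24.2% and 12.6% of cells. FOXP3, the factor of regulatory T cells, stayed below the 100 CPM limit, at 21.7 and 10.7 CPM and 33 and 34 cells. TNFRSF4 (480 and 446 CPM), ICOS (225 and 240 CPM) and CTLA4 (80.5 and 70.4 CPM), receptors of activated helper and regulatory T cells, did not pass the rule in the gate, although TNFRSF4 and ICOS rose over the whole library. CST3, a protease inhibitor abundant in myeloid cells, stood at 1672 and 154 CPM in the T or NK gate, so RNA of other cells was unequal there, and its part in these values was not tested.

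Among inflammatory cytokines and neutrophil attractants, 2 of 16 rose, 1 fell and 13 lay in between (median -0.10). IL11, a cytokine of stromal cells, had 28.0 and 108 CPM (3.87-fold, 3.69 to 4.07), with 2.36 CPM in unwounded skin. Its UMIs lay in the fibroblast gate for 57.9% and 91.4%, where it went from 56.4 to 315 CPM (5.60-fold), with 10.4% and 20.9% of cells. In the mural gate IL11 had 43.4 and 22.8 CPM. TNF rose from 22.9 to 39.9 CPM (1.74-fold), but stayed below 1.5-fold with cells of 1000 or more genes (0.53 on the log2 scale), and in the macrophage gate it had 181 and 565 CPM. LIF fell from 45.6 to 29.8 CPM (1.53-fold), but by 0.49 on the log2 scale with TMM factors. CXCL8 (468 and 497 CPM), CXCL2 (4569 and 5220.1 CPM) and IL6 (912 and 1071 CPM), the abundant attractants and cytokines of early wounds, did not pass the rule.

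Of 10 CC chemokines at level, 2 rose, 2 fell and 6 lay in between, beside 1.98% of all genes higher and 5.03% lower. CCL8, which attracts monocytes and lymphocytes, had 156 and 367 CPM (2.35-fold, 2.30 to 2.40). In the mural gate CCL8 went from 22.9 to 255 CPM (11.1-fold, 9.97 to 12.5) and in the macrophage gate from 1618 to 5069 CPM (3.13-fold). CCL11, the attractant of eosinophils, had 1.77 and 10.9 CPM (6.18-fold). CCL26, another eosinophil attractant, fell from 13.0 to 5.15 CPM (2.53-fold), and CCL21, made by lymphatic endothelium, from 12.1 to 7.58 CPM (1.60-fold), a call that ended with the gates weighted alike (-0.18 on the log2 scale) and with TMM factors. The monocyte attractant CCL2 had 2557 and 3453 CPM (log2 ratio 0.43).

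Genes of tissue macrophages fell. The complement genes C1QA (65.4 and 20.4 CPM, 3.21-fold lower), C1QB (194 and 61.5 CPM, 3.15-fold lower, 3.05 to 3.26) and C1QC (81.7 and 28.2 CPM, 2.90-fold lower) were among the 15 lowest genes, and 7 of 11 markers of macrophages, monocytes and dendritic cells fell (median -0.82), beside a summed level of 783 and 431 CPM and a gate that held 7.52% and 4.88% of cells. SPP1, osteopontin, a matricellular protein of wound macrophages, had 454 and 84.6 CPM (5.37-fold lower, 5.23 to 5.51), against 9.18 CPM in unwounded skin. With the gates at the same shares the fall of SPP1 was 1.67 on the log2 scale against 2.42 over all UMIs, and that of C1QB 0.83 against 1.66. The neutrophil gate, not read by itself, was among those gates and held 43.4% and 37.3% of SPP1 UMIs.

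Within the macrophage gate, where 4.62% of genes fell, SPP1 had 2174 and 601 CPM (3.61-fold lower, 3.46 to 3.78), with 44.2% and 23.6% of cells. C1QB, itself a marker of the gate, had 2148 and 1243 CPM and 49.4% and 30.1% of cells. FABP4, a fatty acid carrier, had 708 and 109 CPM (6.50-fold lower). Over the library, however, the endothelial gate held 61.5% and 48.8% of FABP4 UMIs. HBB had 393 and 2.64 CPM in the macrophage gate, in 15 and 7 cells. RNA of other cells was thus unequal there, and its part in the values of this gate was not tested. C4BPA fell from 1141 to 519 CPM (2.20-fold) and the chemokine CCL14 from 445 to 153 CPM (2.92-fold). In the same gate the calgranulin genes S100A8 (76.3 and 786 CPM) and S100A12 (201 and 1763 CPM) and the growth factor gene CSF3 (76 and 368 CPM) were higher. Over the whole library the markers CD163 (-0.52), CD14 (-0.37), AIF1 (-0.28) and CD86 (-0.08) did not pass the rule, so the list did not move as a block.

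CCL1 and IL4, which were among the 15 lowest genes, lay almost wholly in the mast gate, where 6.98% of genes fell and 3.69% rose. CCL1, a chemokine for helper T cells, had 55.5 and 13.2 CPM (4.21-fold lower, 3.93 to 4.51), and the type 2 cytokine IL4 25.8 and 9.46 CPM (2.73-fold lower). The mast gate held 96.6% and 89.1% of CCL1 UMIs and 96.9% and 93.0% of IL4 UMIs. Within that gate CCL1 had 1535 and 448 CPM (26.9% and 18.2% of cells) and IL4 715 and 335 CPM (35.7% and 32.1%). CSF2, a myeloid growth factor, had 289 and 33.0 CPM there (8.76-fold lower, 6.83 to 11.4). None of 5 mast markers passed the rule (median -0.39). In this gate COL1A1 had 3395 and 1437 CPM and KRT5 72.6 and 1268 CPM, so RNA of other cells was present, unequally, and its part was not tested.

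Endothelial genes fell together with the endothelial gate. Of 13 endothelial markers 10 fell and 0 rose (median -0.70), with a summed level of 1457 and 991 CPM. Among them were the junction genes CLDN5 (216 and 116 CPM) and PECAM1 (337 and 202 CPM, 1.67-fold lower) and VWF, which tethers platelets to the vessel wall (124 and 73.9 CPM). From the list of endothelial activation and angiogenesis 6 of 11 fell (median -0.62), such as TEK, the receptor of angiopoietins (21.5 and 10.9 CPM), KDR, a VEGF receptor (46.1 and 26.3 CPM), and ACKR1, the chemokine-binding receptor of venules (48.7 and 27.1 CPM). With the gates weighted alike that median was -0.30, and CLDN5, PECAM1, VWF, TEK, KDR and ACKR1 no longer passed 1.5-fold. All of these but ACKR1 are markers of the gate, so cells enter it partly by carrying them. Their weighted ratios are therefore not independent of the gate and cannot separate cell share from level. Within the endothelial gate KDR, itself a marker of the gate, had 187 and 161 CPM and ACKR1 198 and 161 CPM.

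Some genes did differ within the endothelial gate, where 2.36% rose and 2.87% fell. CSF3, a growth factor for neutrophils, had 390 and 173 CPM (2.25-fold lower, 2.14 to 2.37), although it was higher in the macrophage gate, and ANGPTL4, an inhibitor of lipoprotein lipase, 154 and 70.6 CPM (2.18-fold lower). VCAM1, an adhesion molecule for leukocytes, fell from 315 to 194 CPM (1.63-fold) and ICAM1 stood at 361 and 337 CPM. UBD, a ubiquitin-like protein that interferon-gamma and TNF induce, went from 38.7 to 124 CPM in the endothelial gate (3.21-fold) and from 127 to 317 CPM in the T or NK gate. Over the whole library UBD had 14.5 and 43.9 CPM (3.03-fold).

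Of 11 genes of keratinocyte wound response and differentiation, 4 fell, 1 rose and 6 lay in between (median -0.13). KRT15, a keratin of basal and hair follicle keratinocytes, fell from 77.9 to 12.5 CPM (6.22-fold, 5.82 to 6.67), and unwounded skin had 580 CPM. KRT1 (127 and 49.6 CPM, 2.56-fold lower) and KRT10 (252 and 121 CPM, 2.09-fold lower), the keratins of suprabasal layers, and the desmosomal cadherin DSG1 (25.1 and 14.6 CPM, but -0.46 on the log2 scale with the gates weighted alike) fell as well. The basal keratins KRT5 (1644 and 1759.9 CPM) and KRT14 (2017 and 1845 CPM) did not pass the rule. The epithelial gate held a smaller share of inhibitor cells (ratio 0.647), with 522 untreated and 389 inhibitor cells.

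In the epithelial gate, where 3.59% of genes fell, KRT15 had 765 and 143 CPM (5.33-fold lower) and 63.4% and 35.5% of cells. KRT1 had 1207 and 533 CPM and KRT10 1967 and 780 CPM, while KRT5 had 15523 and 20269 CPM (1.31-fold, below the rule). Over the library, 81 untreated and 94 inhibitor cells held 93.1% and 99.3% of KRT1 UMIs, so its fall rests on few cells. KRT15 and KRT5 are markers of this gate, so cells enter it partly by carrying them. PHEROC had 1314 UMIs in 11 untreated epithelial cells and 0 UMIs in the inhibitor gate, at least 375-fold lower when the gate is set to a floor of 3 counts. Its whole-library log2 ratio of -3.61 turned to 2.39 when the highest Scrublet doublet scores were removed, so its direction rests on few cells. HLA-DRA, the porcine class II alpha chain under its human name, had 214 and 44.8 CPM, yet 15.9% and 16.5% of cells with a UMI, so few cells carried that difference. S100A8, which wound keratinocytes and neutrophils share, rose over the whole library from 74.7 to 150 CPM (2-fold), with 290 and 343 CPM in the epithelial gate.

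Collagens changed little. Of 19 genes for fibrillar collagens and their processing, 1 rose, 0 fell and 18 lay in between (median 0.00). That count is near the share of all genes, of which 7.02% passed the rule. COL1A1 had 9638 and 8581 CPM (log2 ratio -0.17), COL1A2 8232 and 7265 CPM and COL3A1 7915 and 6725 CPM, against 22503 CPM for COL1A1 in unwounded skin. P4HA3, a subunit of a collagen hydroxylase, rose from 50.7 to 77.1 CPM (1.52-fold), but was below 1.5-fold with the gates weighted alike (0.46 on the log2 scale). Of 15 non-fibrillar and basement membrane genes, the fibril-associated collagen gene COL14A1 and HSPG2, perlecan, fell (each 1.55-fold lower), both below 1.5-fold with TMM factors. In the fibroblast gate 0 of 15 fibrillar collagen and processing genes passed the rule, and COL1A1 had 31001 and 24572 CPM there (-0.34).

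Matricellular genes were lower in 4 of 15 cases and higher in 0 (median -0.24), beside 5.03% of all genes lower and 1.98% higher. Besides SPP1 these were the hyaluronan synthase HAS1 (54.4 and 21.7 CPM, 2.50-fold lower, 2.36 to 2.65), periostin, POSTN, which crosslinks wound matrix (2091 and 1322 CPM, 1.58-fold lower, but -0.54 on the log2 scale with TMM factors), and the proteoglycan VCAN (109 and 69.8 CPM, -0.53 with TMM factors). In the fibroblast gate, where 3.63% of genes fell, HAS1 had 107 and 24.9 CPM (4.29-fold lower) with 27.8% and 13.5% of cells, and POSTN 6697 and 3881 CPM (1.73-fold lower). TNC (0.37), FN1 (-0.27), SPARC (-0.24) and THBS1 (-0.11) lay in between.

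Genes of unwounded dermal fibroblasts fell in 7 of 15 cases and rose in 0 (median -0.50). PI16, a marker of adventitial fibroblasts, had 70.2 and 30.9 CPM (2.27-fold lower, 2.17 to 2.39), with 139 CPM in unwounded skin. CXCL12, the ligand of CXCR4, had 103 and 54.5 CPM and SFRP4, a Wnt modulator, 83.5 and 45.2 CPM. In the fibroblast gate PI16 had 238 and 95.8 CPM, IGFBP5, which binds insulin-like growth factors, 268 and 101 CPM (2.65-fold lower), and the complement gene C4A 111 and 40.9 CPM (2.70-fold lower). CFD, complement factor D (0.30), and CXCL14 (0.07) did not pass the rule.

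HPS5 and SERPINE2 rose with IL11 in the fibroblast gate. SERPINE2, an inhibitor of plasmin and thrombin-like proteases, had 25.2 and 92.4 CPM over the library (3.67-fold, 3.49 to 3.86), and 28.0 and 222 CPM in the fibroblast gate (7.95-fold). HPS5 had 107 and 814 CPM (7.64-fold, 7.46 to 7.82), and 263 and 2096 CPM in the fibroblast gate, which held 71.1% and 81.0% of its UMIs. A single inhibitor cell had up to 2751 UMIs of HPS5. HPS5 is followed by SAA2 and SAA4 in the RefSeq gene table of Sscrofa11.1, the annotation behind the counts is not given in the sources used here, and which gene its UMIs come from is uncertain. The same holds for CPSF6 (677 and 244 CPM, 2.78-fold lower), which is followed there by LYZ, the lysozyme gene of macrophages, while LYZ itself had a UMI in 1 untreated and 0 inhibitor cells.

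Contractile genes rose in 5 of 14 cases, with 0 lower (median 0.28). ACTA2, smooth muscle actin, had 1288 and 2177 CPM (1.69-fold) and TAGLN, transgelin, 1619 and 2715 CPM (1.68-fold). The rises went with the mural gate, whose share was 1.28 times as large and which held 28.5% of all UMIs against 19.8%. Within the mural gate ACTA2 had 5042 and 6592 CPM and TAGLN 5706 and 7354 CPM, and 0 of 13 contractile genes passed the rule (median -0.03), where 2.97% of genes in the gate rose and 6.49% fell. With the gates weighted alike the list's median was -0.11, and ACTA2 (0.35) and TAGLN (0.36) stayed below 1.5-fold.

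Focal adhesion genes, the list closest to the drug's target, held their levels within the rule in 18 of 19 cases. That is near the share of all genes, of which 7.02% passed the rule. The exception was the integrin subunit ITGB3 (20.5 and 11.6 CPM, 1.77-fold lower). ILK, a kinase-like adaptor of integrins, had 124 and 176 CPM (log2 ratio 0.50), the integrin subunit ITGB1 514 and 565 CPM and vinculin, VCL, 123 and 124 CPM. The list of YAP/TAZ targets, which respond to tension, also holds the pathway's own genes YAP1, WWTR1 and TEAD1. None of its 14 members at level passed the rule over the whole library (median -0.12), with CCN1 at -0.17 and CCN2 at -0.09. That is near the share of all genes, of which 7.02% passed. In the fibroblast gate, where 3.63% of all genes fell, 2 of 3 list members at level fell. Among them was CCN2 with 208 and 114 CPM (1.83-fold lower).

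Of 16 TGF-beta genes 1 rose and 3 fell, beside 1.98% of all genes higher and 5.03% lower. TGFBR3, the co-receptor betaglycan, had 63.6 and 33.9 CPM (1.88-fold lower), and the BMP antagonist GREM1 (43.1 and 28.2 CPM) and the signal carrier SMAD3 (25.5 and 16.9 CPM) also fell, whereas the pseudoreceptor BAMBI rose just past the limit (1.51-fold). With the gates weighted alike SMAD3 (-0.48) and BAMBI (0.51) were below 1.5-fold, and with TMM factors GREM1 was (-0.50). TGFB1 had a log2 ratio of -0.33. Among matrix proteases and inhibitors SERPINE2 rose, and MMP9 (118 and 68.0 CPM), the plasminogen activator PLAT (80.8 and 40.2 CPM) and the aggrecanase ADAMTS4 (607 and 377 CPM) fell. MMP9 was at -0.30 with the gates weighted alike and ADAMTS4 at -0.57 with TMM factors, both below 1.5-fold. MMP3, stromelysin, had 100 and 142 CPM (0.50), and in the fibroblast gate 62.4 and 208 CPM (3.34-fold).

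Lists that do not depend on 1 cell class moved little, with exceptions. Cell cycle genes passed the rule in 0 of 11 cases and immediate early genes, which enzymatic digestion also raises, in 0 of 14 (median 0.07). Both counts lie near the share of all genes, of which 7.02% passed. Of 9 heat shock genes, the co-chaperone DNAJB1 rose, from 157 to 313 CPM (1.99-fold). VEGFA, the main angiogenic growth factor, fell from 55.6 to 36.4 CPM (1.53-fold) as the only one of 11 hypoxia and glycolysis genes, and was below 1.5-fold with the gates weighted alike (-0.48 on the log2 scale) and in 2 other settings. Mitochondrially encoded genes fell in 7 of 13 cases (median -0.59), their medians lay between -0.36 and -0.81 in all 8 gates read, and ND3, a subunit of complex I, had 332 and 133 CPM. The globin gene HBB had 184 and 97.3 CPM, with a UMI in 3.41% and 1.51% of cells, and its log2 ratio of -0.92 was -0.02 at the weakest of the settings tried, with the call lost in 3 of 8. In the T or NK gate HBB went the other way (36.8-fold higher), in 18 and 29 cells.

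ADIPOQ, the adipocyte hormone adiponectin, had the lowest ratio of the comparison, with 23.9 and 1.87 CPM (12.8-fold lower, 10.8 to 15.2). Its UMIs came from 64 untreated and 17 inhibitor cells, so few cells carry this value. SCIN (25.6 and 5.96 CPM, 4.30-fold lower), an actin-severing protein, and FCN2 (47.4 and 18.2 CPM, 2.60-fold lower), a lectin of the complement pathway, had more UMIs in the endothelial gate than in any other, 49.8% and 50.5% of those in the untreated graft.

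To separate gate shares from levels, the whole-library ratio was computed again with every gate weighted by its cell number in both libraries together. Then 115 genes rose and 183 fell, and 83 of the 138 and 130 of the 350 were shared with the calls on all UMIs. CXCL10 then had a log2 ratio of 3.98 against 3.85, CXCL9 3.02 against 2.88, CXCL11 3.29 against 2.79 and IRF1 1.37 against 1.39, while IDO1 moved up to 2.17 from 1.49. Other chemokine genes moved toward 0, such as CCL14 with -1.14 against -1.78 and CCL26 with -0.88 against -1.34. GNLY with 0.88 against 1.59 and GZMA with 1.34 against 2.06 were smaller but past the rule, and the T cell receptor subunit CD3E was at 0.24 against 0.92. KRT15 (-2.28 against -2.64), HAS1 (-1.49 against -1.32) and PI16 (-1.29 against -1.19) also held.

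**Figure D5:**
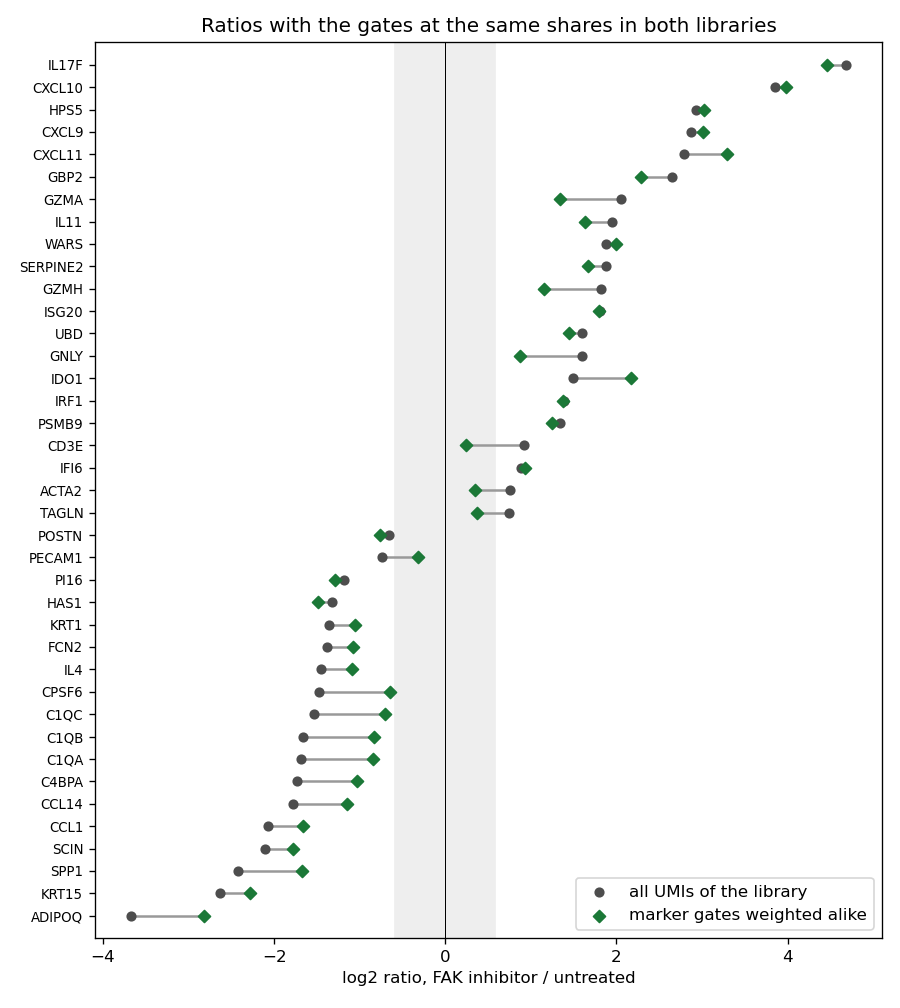
Grey points give the log2 ratio of inhibitor to untreated graft over all UMIs of the library and green diamonds the ratio with marker gates weighted alike in both libraries. Diamonds of ACTA2, TAGLN, CD3E and PECAM1 lie in the grey band below 1.5-fold, and those of the CXCR3 ligands lie near or beyond their grey points.

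The plot of ratios with gates weighted alike shows which genes moved toward 0 when the gate shares were held the same. C1QA (-0.84), C1QB (-0.83) and C1QC (-0.70) moved toward 0 and stayed past the rule. These C1Q genes, CD3E, PECAM1, GNLY and KRT15 are markers of their gates, so their weighted ratios are not independent of the gates. Of the 109 named genes that passed 1.5-fold over all UMIs, 65 passed it in each of the other settings tried (PHEROC in the opposite direction in 1 of them), 33 did not with the gates weighted alike, and 11 failed in another setting only.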

How the data were processed

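Single-cell RNA of 2 day 7 graft libraries was compared, with 3 other libraries for levels. The deposited files hold raw UMI counts per gene and barcode. Per the submitters' processing notes, Cell Ranger produced them. The genome build is not given in the sources used here, and neither is the release of Cell Ranger, although each matrix header names software version 3.1.0. Seurat 3.1.1, listed in the same notes, was not used. Of 20286 gene identifiers 14674 carried a symbol (83.2% and 82.5% of UMIs), and 7716 symbols lay under 10 CPM in both libraries.

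Counts were summed over cells with 500 or more genes and divided by all UMIs of those cells. Ratios have exact conditional binomial intervals and shares Clopper-Pearson intervals, at 95%. A ratio against 0 UMIs would use a floor of 3 counts. The calculation was tested on simulated data. Members, gene lists (26, with 390 of 468 genes measured) and marker lists (11, with 114 of 131) were chosen with earlier results of these data known. Named genes were the 15 highest and 15 lowest ratios at 20 CPM or more, without ribosomal and mitochondrial genes. To these came up to 4 called members farthest from 1 and the 3 most abundant members of each list, CXCR3 ligands, CXCR3 and PTK2, and the 3 highest and 3 lowest genes of each gate. That gave 193. Other list members and gate values appear as examples chosen after their values were seen. Doublets were kept. Scrublet's automatic threshold called 1 cell in each library and so had not worked, and an alternative removed the highest scores at 0.8% per 1000 cells (531 and 705 cells). Alternatives also varied the cell filter, scaling, gate weights, level limit and fold. With gene symbols from a name table added, chosen after seeing the data, 670 identifiers gained a symbol. TMM factors, 1.04 and 0.960, came from edgeR 4.0.16 in R 4.3.3, which served for nothing else. Other steps ran in Python 3.11.15 with Scanpy 1.11.5, pandas 2.3.3, SciPy 1.17.1, Matplotlib 3.10.9 and NumPy 2.4.6. Some values are not reported here.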

Additional observations from a re-analysis of the deposited data

Results flagged for a closer look

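At day 90 some genes that passed 1.5-fold at day 7 passed it in the other direction, each with 1 library per side, and the difference between the 2 times was not tested. All values are log2 ratios of the inhibitor to the untreated graft over the whole library.

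Genes higher at day 7 and lower at day 90 included those of the fibroblast gate. HPS5 was at 2.93 and -6.27, IL11 at 1.95 and -4.72, SERPINE2 at 1.88 and -0.95, and P4HA3 at 0.61 and -1.37. The chemokine CCL8 was at 1.23 and -0.99, GNLY at 1.59 and -1.10, CD3E at 0.92 and -1.26 and S100A12 at 0.82 and -0.69. The medians of lymphocyte effector genes (0.93 and -1.03) and of T or NK markers (0.81 and -1.03) went the same way. At day 90 each of these medians rests on 4 members at level, against 12 and 9 at day 7. The lists share GNLY and NKG7, so their medians are not independent of each other.

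Some keratinocyte genes were lower at day 7 and higher at day 90, while 6 of 11 on their list lay in between at day 7. KRT15 was at -2.64 and 1.14, KRT1 at -1.36 and 3.52, KRT10 at -1.06 and 2.77, DSG1 at -0.78 and 3.46, and DSP, a desmosomal plaque protein, at -0.63 and 2.73. Endothelial genes went the same way, with KDR at -0.81 and 0.75, CLDN5 at -0.90 and 1.12, VWF at -0.75 and 0.99, and the median of endothelial markers at -0.70 and 0.76. So did SCIN (-2.10 and 1.07), PLAT (-1.01 and 0.60), and the chemokines CCL26 (-1.34 and 1.55), CCL21 (-0.68 and 1.44) and CXCL12 (-0.92 and 0.77).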

How the results depend on the processing

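No paired analysis was possible because each group is 1 library and the labels give no replicate numbers, and no replicate could be left out for the same reason. Against 138 higher and 350 lower genes, TMM factors gave 210 and 187, a limit of 50 CPM 71 and 106 (of 2439 genes), no level limit 704 and 1713 (of 13351 genes with a UMI in both libraries), and a 2-fold rule 45 and 49. With gates weighted alike 183 genes fell. The other 15 counts stayed within 1.5 times, such as 125 and 374 with cells of 1000 or more genes, and 201 and 301 when CPM were averaged over cells. Of the 109 named genes that passed 1.5-fold, 2 turned direction: CTSS had a log2 ratio of 0.029 with gates weighted alike, and PHEROC, seen in few cells, 2.39 after the highest Scrublet scores were removed. Some genes that had not passed also changed sign, such as SLA-DQB1 (-0.16 and 0.35 with gates weighted alike). Named genes on few UMIs or cells (IL17A, IL17F, ADIPOQ, PHEROC) are limited by depth, and intervals leave out the spread between animals.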

Other observations

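Levels in the other libraries set the day 7 values in context. CXCL10 stood at 61.8 CPM in the untreated and 111 CPM in the inhibitor graft at day 90, so both day 7 grafts lay above both day 90 grafts. CXCL9 had 41.6 and 76.3 CPM at day 90. IL17F had 2.27 and 0.199 CPM at day 90 and 0.275 CPM in unwounded skin, and the day 7 inhibitor graft with 30.4 CPM was the highest of the 5 libraries. For KRT15, unwounded skin with 580 CPM was above all grafts.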
